A study of Mus musculus with 23 samples.

Results

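The transcripts of 10 genes of tumor necrosis factor (TNF) receptor and NF-kB signaling, of 14651 genes tested, were followed in brown adipose tissue (BAT) of mice kept at room temperature (RT) or moved to 4°C for 6 h. The 10 genes were taken by symbol from a fixed list: the receptors Tnfrsf1a, Tnfrsf1b and Tnfrsf12a, the inhibitors Nfkbia and Tnfaip3, the NF-kB subunit genes Nfkb1, Nfkb2, Rela and Relb, and the target gene Icam1. All 10 were found. The list was chosen by pathway with the measured changes of these genes by cold and genotype in view. Their values, and whether they passed a threshold, are therefore given as a description and not as tests, without p-values.

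RNA was sequenced from the BAT of 23 male C57BL/6 mice, 8 to 12 weeks old, in 4 groups. Control mice were homozygous for an Mcu allele with loxP sites around an exon (Mcu fl/fl) and carried no Cre, with 6 mice at RT and 5 at 4°C. BAT-Mcu-KO mice (Mcu fl/fl;Ucp1-Cre) carried the same loxP allele and a Cre transgene driven by the Ucp1 promoter, with 6 mice at each temperature, and are also called knockout mice here. Mcu encodes the pore of the mitochondrial calcium uniporter. Every group therefore carries the loxP allele, and no group carries Cre without it. Mice at 4°C were housed alone, without bedding and by default without food. Whether the mice at RT were fasted for the sequencing is not given in the sources used here, so cold, fasting and housing cannot be told apart.

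In the resting cell, NF-kB dimers are held in the cytoplasm by IkB proteins. When TNF binds its receptors, adaptor proteins and ubiquitin enzymes activate the IkB kinase complex, IkB is degraded and the dimers enter the nucleus. There they switch on genes of inflammation and cell adhesion, and also the genes of their own inhibitors, IkBalpha (Nfkbia) and A20 (Tnfaip3). In adipose tissue TNF is known as a product of macrophages that opposes insulin action and thermogenic gene expression.

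Promoter windows of RefSeq (GRCm38.p6), from 250 bases before to 50 bases after each transcript start, were available for 8 of the 10 genes, in 11 windows. Nfkb1 and Relb had none. The 10-letter kB consensus, the general binding sequence of NF-kB searched on both strands, was found in 5 of the 11 windows, which belong to 3 of these 8 genes, Nfkbia, Tnfaip3 and Nfkb2. Among all 32851 promoter windows, 4.51% held it. A relaxed form with any base at the first position was found in 6 of the 11 windows, with Icam1 as 1 further gene, and in 13.3% of all windows. The stretches that hold these letters are printed 5′ to 3′ in the direction of the gene, to show the letters on which these counts rest. Capitals mark the consensus and, in Icam1, its relaxed form.
Nfkbia, chr12:55492648-55492747, minus strand: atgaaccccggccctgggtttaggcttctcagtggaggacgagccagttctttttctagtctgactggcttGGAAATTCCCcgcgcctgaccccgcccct
Tnfaip3, chr10:19015516-19015545, minus strand: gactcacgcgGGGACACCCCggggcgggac
Tnfaip3, chr10:19015411-19015440, minus strand: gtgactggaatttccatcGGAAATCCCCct
Nfkb2, chr19:46304688-46304717, plus strand: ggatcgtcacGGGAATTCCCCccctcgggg
Icam1, chr9:21015780-21015939, plus strand: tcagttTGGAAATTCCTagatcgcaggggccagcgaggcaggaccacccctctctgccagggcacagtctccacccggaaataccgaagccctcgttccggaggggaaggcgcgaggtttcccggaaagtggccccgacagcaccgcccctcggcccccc

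The match of Nfkbia lies 29 to 20 bases before the transcript start, and the matches of Tnfaip3 lie 125 to 116 and 12 to 3 bases before it. In Nfkb2 a pair of overlapping matches spans 39 to 29 bases before the start, and another match 11 to 2 bases before it is not printed. The other 2 windows of Nfkb2, at further transcript starts, overlap each other and together hold 2 more matches, also not printed. By the GENCODE M21 annotation the stretches of Nfkbia and Icam1 lie upstream of the gene, those of Tnfaip3 lie within the gene but in none of its exons, and that of Nfkb2 lies in an exon of a longer transcript. No window of Tnfrsf1a, Tnfrsf1b, Tnfrsf12a or Rela held either form. A match is a run of letters and not a measured binding site.

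The samples held 7129271 to 21006347 reads each. The normalized count of Mcu was 70.8 to 136 in control mice and 15.2 to 42.4 in knockout mice, and in knockout relative to control mice Mcu fell by 1.66 on the log2 scale at RT and by 1.61 at 4°C (limma, adjusted p = 0.001 and 0.00367). Ucp1, the uncoupling protein that defines brown adipocytes, had a normalized count of at least 50590 in every sample, and the summed counts of 8 brown adipocyte markers were 178727 to 315155. Summed counts of 6 skeletal muscle markers were 6.22 to 42697, so the amount of muscle RNA differed widely between samples within each group. The groups differed too. In control mice the sums were 29.8 to 5744 (median 1675) at RT and 6.22 to 30100 (median 9976) at 4°C. In knockout mice they were 18.6 to 42697 (median 16607) at RT and 44.2 to 7781 (median 2997) at 4°C. The part of muscle RNA in the comparisons was not tested.

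By cold, 4 of the 10 genes were higher and 1 was lower past the threshold in control mice, and 4 were higher and 2 were lower in knockout mice (limma, adjusted p under 0.05 over all 14651 genes). Of all genes tested, 46% passed in control mice, 22.3% higher and 23.7% lower, and 43.3% passed in knockout mice, 21.4% higher and 21.9% lower. The 4 higher genes were the receptors Tnfrsf1a, Tnfrsf1b and Tnfrsf12a and the adhesion gene Icam1 in both genotypes. Relb was lower in both genotypes and Tnfaip3 in knockout mice. For the 4 higher genes and Relb, the values of the mice at 4°C and at RT did not overlap in either genotype, which held for 25.2% of all genes in control and 24.2% in knockout mice (13% and 12.4% higher, 12.3% and 11.9% lower). These shares are given as background only, since cold was used to choose the genes. Values of single control mice at 4°C are listed below in the order of replicates 1 to 5.

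**Figure D1:**
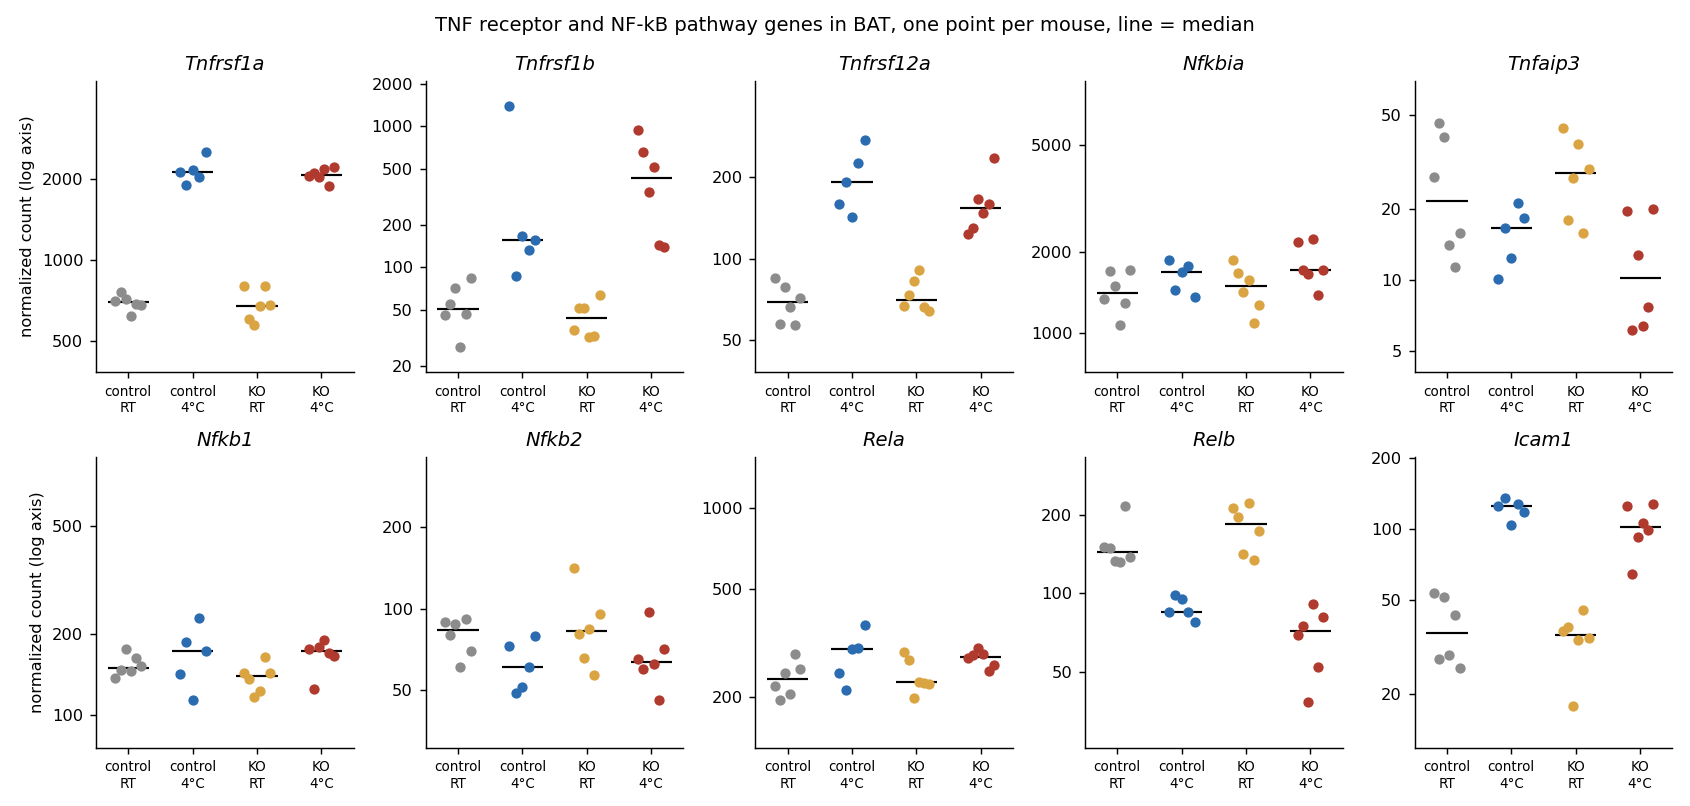
Normalized count of each of the 10 genes (vertical log axis, a separate scale for each gene) in each mouse, by group (KO stands for BAT-Mcu-KO). Points are single mice and lines are medians, and Tnfrsf1a lies between 578 and 804 at RT and between 1881 and 2523 at 4°C.

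Tnfrsf1a, on chromosome 6 (GRCm38, 125349362 to 125362484, plus strand), encodes the TNF receptor with a death domain that is found on nearly all cells. In control mice at RT its normalized counts were 623 to 763 (median 699), and at 4°C they were 2132, 1895, 2161, 2031 and 2523. In knockout mice they were 578 to 804 (median 679.7) at RT and 1881 to 2228 (median 2074) at 4°C. Every mouse at 4°C was therefore well above every mouse at RT, and the mice of each group lay close together. By cold, the log2 fold change (± SE) was 1.62 ± 0.09 in control and 1.60 ± 0.09 in knockout mice, a fold of 3.07 and 3.02 in normalized count + 1. Here and below, log2 fold changes are differences of mean log2(normalized count + 1), which understates the change of genes with low counts.

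Tnfrsf1b, on chromosome 4 (145213463 to 145246870, minus strand), encodes the other TNF receptor, which lacks a death domain and is most abundant on immune and endothelial cells. In control mice its normalized counts were 27.2 to 84.4 (median 50.9) at RT. At 4°C they were 1394, 86.5, 167, 132 and 156, so that 1 mouse stood far above the other 4. In knockout mice they were 32.3 to 64.2 (median 44.0) at RT and 941, 660.2, 344, 512, 144 and 138 at 4°C. The lowest control mouse at 4°C was just above the highest control mouse at RT, and the knockout mice at 4°C spread from 138 to 941. The log2 fold change by cold was 2.00 ± 0.53 in control and 3.03 ± 0.50 in knockout mice. Without the highest control mouse (replicate 1 at 4°C) the value in control mice was 1.32 ± 0.41.

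The spread of Tnfrsf1b at 4°C was set beside markers of macrophages, a cell type that expresses it. Of 13 macrophage marker symbols, in which Emr1 and Adgre1 name the same gene, 11 were among the genes tested. Their summed normalized counts were 1014 to 1388 in control mice at RT, 1244 to 1949.9 in control mice at 4°C, 793 to 1467 in knockout mice at RT and 1540.2 to 2026 in knockout mice at 4°C. By cold, 4 of the 11 rose in control and 6 of the 11 in knockout mice, and 0 fell in either (limma). Of all genes tested, 22.3% rose in control and 21.4% in knockout mice. The control mouse with the highest Tnfrsf1b had the highest macrophage sum of its group, and the next highest sum, 1838, belonged to a control mouse with a Tnfrsf1b count of 156. Among knockout mice, the mice with the 2 highest macrophage sums, 2026 and 2019, had the lowest and the highest Tnfrsf1b count of their group, 138 and 941. The part of macrophages in these values was not tested, and in RNA from whole tissue a change in the number of cells of a type and a change in RNA per cell cannot be told apart.

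**Figure D2:**
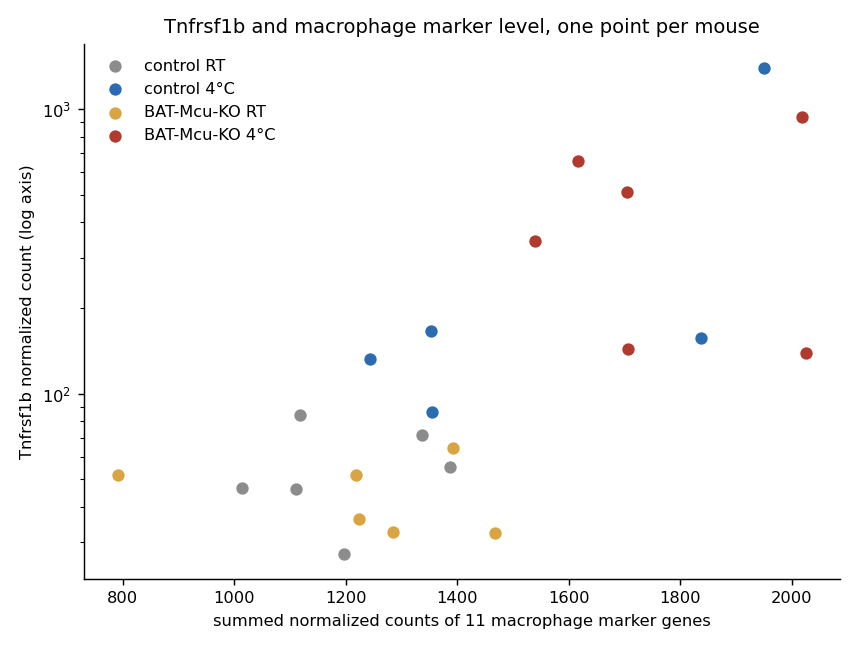
Normalized count of Tnfrsf1b (vertical log axis) against the summed normalized counts of 11 macrophage marker genes (horizontal axis), a point per mouse, colored by group. All mice at 4°C lie above all mice at RT of their genotype in Tnfrsf1b, and at 4°C mice with similar macrophage sums differ widely in it (1394 and 156 at sums of 1949.9 and 1838).

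Tnfrsf12a, on chromosome 17 (23675445 to 23677468, minus strand), encodes the receptor of the cytokine TWEAK and is induced by growth factors and injury. Its normalized counts in control mice were 57.0 to 85.1 (median 68.9) at RT and 159.8, 193, 143, 226 and 276 at 4°C. In knockout mice they were 64.2 to 90.5 (median 70.0) at RT and 123 to 236 (median 153) at 4°C. The mice at 4°C were all above those at RT in both genotypes. The log2 fold change by cold was 1.49 ± 0.17 in control and 1.08 ± 0.17 in knockout mice.

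The inhibitor genes, both with the kB consensus in the stretches printed above, did not share the pattern of the receptors. Nfkbia (chromosome 12, 55489410 to 55492647, minus strand) encodes IkBalpha, which captures NF-kB dimers and is resynthesized when they are active. In control mice its normalized counts were 1077 to 1715 (median 1415) at RT and 1863, 1446, 1691, 1772 and 1358 at 4°C. In knockout mice they were 1090.3 to 1870.0 (median 1499) at RT and 1387 to 2230.0 (median 1714) at 4°C. The groups overlapped broadly, and the log2 fold changes by cold of 0.19 ± 0.14 in control and 0.29 ± 0.14 in knockout mice did not pass. The latter passed in both of the fits that left out knockout replicate 1 at RT or replicate 5 at 4°C, with log2 fold changes of 0.37 and 0.37.

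Tnfaip3 (chromosome 10, 19000910 to 19015657, minus strand) encodes A20, a ubiquitin-editing enzyme that ends TNF receptor signaling. It rested on 5 to 51 reads per mouse, the fewest of the 10 genes. Its normalized counts were 11.4 to 46.5 (median 21.6) at RT in control mice and 10.1, 16.7, 12.4, 21.3 and 18.4 at 4°C. In knockout mice they were 15.8 to 44.0 (median 28.4) at RT and 6.14 to 20.0 (median 10.3) at 4°C. Both pairs of groups overlapped. The log2 fold change by cold was -0.54 ± 0.38 in control mice, which did not pass, and -1.24 ± 0.36 in knockout mice, which passed. With a pseudocount of 10 in place of 1 the latter was -0.81.

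Of the 4 subunit genes, Relb alone passed the threshold by cold in the fit of all samples. Relb (chromosome 7, 19606217 to 19629438, minus strand) encodes the subunit that pairs with the Nfkb2 product in the non-canonical pathway, the branch set off by receptors such as Cd40, Ltbr and Tnfrsf12a. Its normalized counts in control mice were 132 to 215 (median 143) at RT and 85.0, 98.6, 94.6, 84.5 and 77.8 at 4°C. In knockout mice they were 134 to 222 (median 184) at RT and 38.3 to 90.6 (median 71.8) at 4°C. All mice at 4°C were below all mice at RT. The log2 fold change was -0.77 ± 0.19 in control and -1.43 ± 0.18 in knockout mice.

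Rela (chromosome 19, 5637483 to 5648130, plus strand) encodes the main transactivating subunit of the canonical pathway. Its normalized counts were 194 to 288 (median 232) for control mice at RT, 245, 211, 301, 303 and 368 in control mice at 4°C, 198 to 293 (median 226) in knockout mice at RT and 249 to 302 (median 282) in knockout mice at 4°C. The groups overlapped, with log2 fold changes by cold of 0.27 ± 0.13 in control and 0.22 ± 0.12 in knockout mice. The value in control mice passed without control replicate 5 at RT (0.34) or replicate 2 at 4°C (0.38).

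Nfkb1 (chromosome 3, 135584655 to 135691547, minus strand) encodes the usual partner of Rela. Its normalized counts were 138 to 176 (median 149) for control mice at RT, 142, 187, 113, 228 and 173 in control mice at 4°C, 116 to 165 (median 139) in knockout mice at RT and 125 to 189 (median 173) in knockout mice at 4°C. The groups overlapped. The log2 fold changes by cold were 0.10 ± 0.15 in control and 0.28 ± 0.14 in knockout mice, and the latter passed without knockout replicate 2 at 4°C (0.36). Leaving out each mouse in turn gave -0.02 to 0.23 in control mice, so the sign was not kept, and 0.23 to 0.36 in knockout mice.

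Nfkb2 (chromosome 19, 46304320 to 46312385, plus strand) encodes the precursor that is cut in the non-canonical pathway. Its normalized counts were 60.9 to 91.1 (median 83.6) for control mice at RT, 72.8, 48.6, 51.0, 61.0 and 79.4 in control mice at 4°C, 56.7 to 142 (median 82.5) in knockout mice at RT and 45.7 to 97.5 (median 63.6) in knockout mice at 4°C. The groups overlapped, and the log2 fold changes by cold were -0.35 ± 0.21 in control and -0.36 ± 0.20 in knockout mice. The gene shares 830 exonic bases with the neighboring genes Psd and AC114539.1, and reads from this stretch cannot be assigned by strand.

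Icam1 (chromosome 9, 21015985 to 21028817, plus strand) encodes an adhesion molecule of endothelial and immune cells and is a standard readout of NF-kB activity. In control mice its normalized counts were 25.8 to 53.9 (median 36.4) at RT and 125, 135, 105, 128 and 119 at 4°C. In knockout mice they were 17.8 to 45.5 (median 35.8) at RT and 64.9 to 128 (median 103) at 4°C. The temperatures did not overlap in either genotype. The log2 fold change by cold was 1.69 ± 0.23 in control and 1.56 ± 0.22 in knockout mice. The annotation places 511 exonic bases of Icam1 in common with Gm47079.

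Summed counts of 8 endothelial markers, all among the genes tested, also differed by temperature. They were 3767 to 5256 at RT and 6229.7 to 10530.5 at 4°C in control mice, and 3987 to 5420.1 at RT and 5827 to 9724 at 4°C in knockout mice. Of the 8 markers, 3 rose and 2 fell in control and 3 rose and 1 fell in knockout mice (limma), where 46% and 43.3% of all genes were called. A sum follows its most abundant genes, and the median log2 fold change of the 8 markers by cold was 0.18 in control and 0.17 in knockout mice. The part of these markers in the values of Icam1 was not tested. Of 9 markers of T and B cells and 6 of neutrophils, 1 each was among the genes tested, with normalized counts of 0 to 17.9 and 0 to 39.5. The other markers of these lists were not among the genes the authors kept, which had at least 8 reads in at least 6 samples.

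By genotype, 0 of the 10 genes passed at RT and 0 at 4°C (limma), against 0.0478% and 0.0751% of all genes, and DESeq2 and edgeR on the recovered reads called 0 as well. At an unadjusted p under 0.05 the counts in limma were 0 of 10 at RT and 1 of 10 at 4°C, Relb, against 5.15% and 6.98% of all genes. At RT the log2 differences between knockout and control mice lay between -0.26 (Tnfrsf1b) and 0.24 (Tnfaip3). At 4°C they lay between -0.46 (Tnfaip3) and 0.77 (Tnfrsf1b), and the value of Relb was -0.43 ± 0.19. For Tnfrsf1a, the receptor with the tightest values, they were -0.02 ± 0.09 at RT and -0.04 ± 0.09 at 4°C. The value of Tnfrsf1b at 4°C was 1.45 ± 0.41 without the highest control mouse (control replicate 1). This is the upper end of the 0.45 to 1.45 given by leaving out each mouse in turn, and 0 of the 10 genes passed in any of these fits.

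The difference of the cold response between the genotypes was fitted as the interaction. Since the 10 genes were chosen with these changes in view, their counts are a description. In limma, DESeq2 and edgeR alike, 0 of the 10 genes passed, and 0% of all genes passed in limma, where DESeq2 called 28 genes and edgeR 0. At an unadjusted p under 0.05 the count was 1 of 10 in each of the 3 tools, and in limma this was Relb, against 5.99% of all genes. The interaction of Relb was -0.66 ± 0.26, the cold difference being lower by that amount in knockout than in control mice. That of Tnfrsf1b was 1.03 ± 0.73. Leaving out each mouse in turn gave 0.71 to 1.71, the highest without control replicate 1 at 4°C (1.71 ± 0.55). In these fits too, 0 of the 10 genes passed. For the other 8 genes the interaction lay between -0.70 (Tnfaip3) and 0.18 (Nfkb1).

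**Figure D3:**
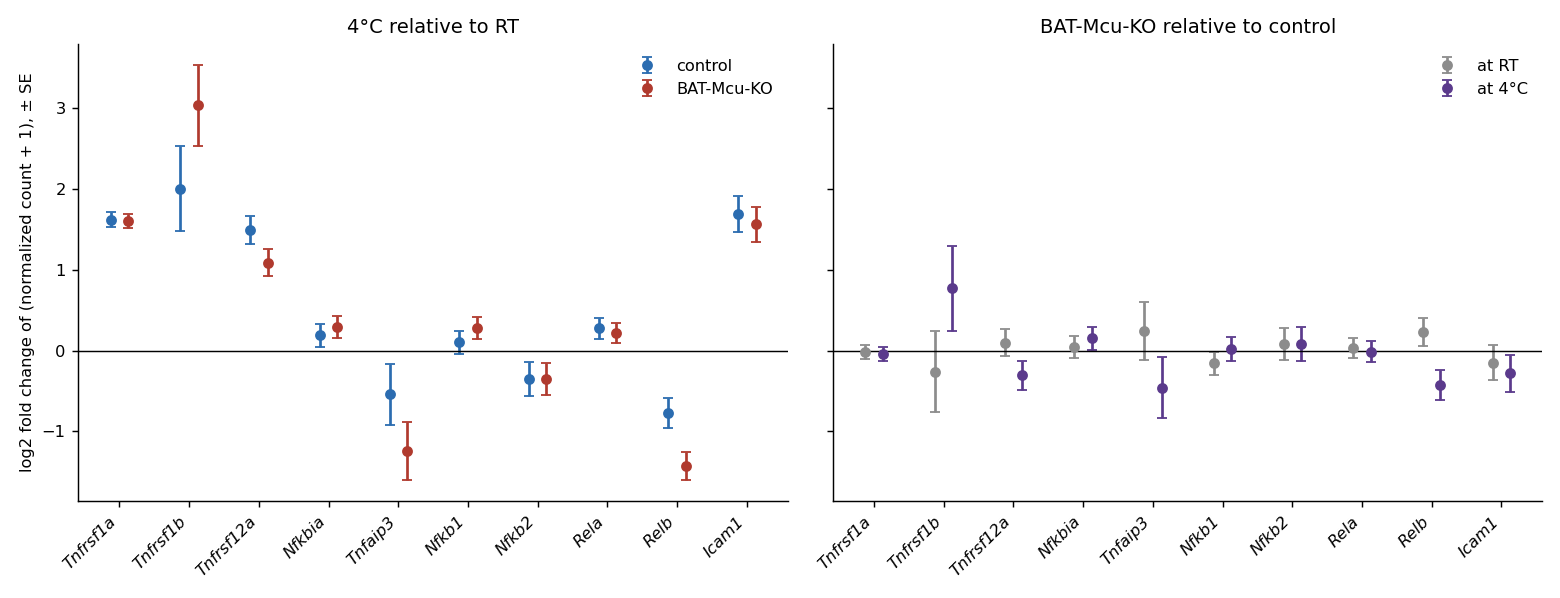
Log2 fold change of normalized count + 1 for the 10 genes, by cold (left) and by genotype (right). Points are estimates and bars are 1 standard error, and the receptors and Icam1 lie between 1.08 and 3.03 by cold in both genotypes while the 10 values by genotype lie between -0.46 and 0.77.

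To compare levels between genes, normalized counts were divided by exonic length (GENCODE M21). This length joins all annotated exons of a gene, so the level is understated where some of them are not used in BAT. It was longest for Nfkb1, 12.061 kilobases. In control mice at RT, Nfkbia had the highest level, 891 ± 155 per kilobase (SD, n = 6), followed by Tnfrsf1a with 269 ± 17.9 and Rela with 76.1 ± 11.3. The ranges of these 3 genes did not overlap each other or those of the genes below. Relb (39.3 ± 8.16) and Tnfrsf12a (35.8 ± 5.87) overlapped. Nfkb2 (17.4 ± 2.65), Tnfrsf1b (14.5 ± 5.32), Nfkb1 (12.7 ± 1.13) and Icam1 (8.89 ± 2.89) formed a run in which each gene overlapped its neighbor, and Tnfaip3, the lowest with 3.60 ± 2.05, overlapped Icam1. In control mice at 4°C, Nfkbia (1009.9 ± 134, n = 5) and Tnfrsf1a (829 ± 90.3) overlapped. Tnfrsf12a (103 ± 27.6), Tnfrsf1b (101 ± 148) and Rela (92.9 ± 19.6) came next and also overlapped. In knockout mice at 4°C, Rela (90.4 ± 6.25, n = 6) ranked above Tnfrsf12a (83.0 ± 21.1), again with overlap. The inhibitor Nfkbia was thus the most and the inhibitor Tnfaip3 the least abundant of the 10 transcripts per length in each of the 4 groups.

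**Figure D4:**
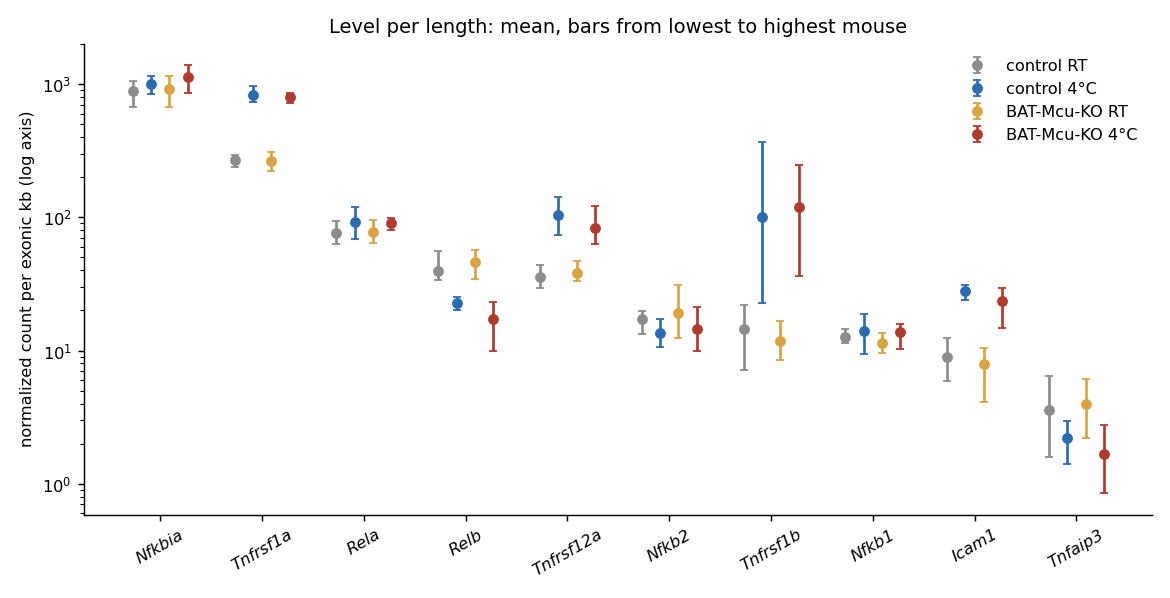
Normalized count per exonic kilobase (vertical log axis) of the 10 genes in each group, ordered by the level in control mice at RT. Points are means and bars run from the lowest to the highest mouse, from 891 for Nfkbia to 3.60 for Tnfaip3 in control mice at RT.

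Over the 23 samples, the genes whose log2 values were most like those of Tnfrsf1a by Pearson's r were Ucp1 (0.983), the kinase gene Plk3 (0.983), the protease gene Adam12 (0.983), the co-chaperone gene Bag3 (0.981) and Ppargc1a (0.981), which encodes a coactivator of thermogenic genes. Within the 10 genes, Icam1 (0.923) and Tnfrsf12a (0.905) were most like Tnfrsf1a and Relb (-0.84) was least. For Nfkbia the most similar named genes were Rab11b (0.778) and Maea (0.746), and its r with Tnfrsf1a was 0.47. These are descriptions over samples of 4 groups that share the temperature difference.

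The other genes of the pathway were counted in lists that hold none of the 10 genes, and were tested with limma over all 14651 genes. Of 90 symbols of pathway genes, with Otulin also under its former symbol Fam105b, 64 were among the genes tested. The others were not among the genes the authors kept, which had at least 8 reads in at least 6 samples. By cold, 14 rose and 11 fell in control mice, 39.1% of those tested against 46% of all genes, and 18 rose and 8 fell in knockout mice, 40.6% against 43.3%. When each mouse was left out in turn, 21 to 27 were called in control mice. In knockout mice 19 to 24 were called, always fewer than in the fit of all samples. With each library scaled to its 75th percentile, 12 rose and 17 fell in control mice, a setting in which 38.2% of all called genes were higher, against 48.5% otherwise. In both genotypes 12 pathway genes rose, 18.8% of those tested against 17.3% of all genes, and 7 fell, 10.9% against 17.5%, and these 19 are named below, most of them chosen after their values were seen.

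Of 18 ligand genes of the TNF family, 3 were tested, and Tnf itself was not among them. Tnfsf10, which encodes the death ligand TRAIL, fell in both genotypes, with normalized counts of 88.4 to 217 (median 141) at RT in control mice and 22.3, 13.7, 56.0, 16.2 and 28.9 at 4°C. On the log2 scale it changed by -2.47 ± 0.28 in control (adjusted p = 1.03e-07, limma) and -2.41 ± 0.27 in knockout mice (adjusted p = 7.60e-08). Of 25 other receptors, 17 were tested, and 1 rose and 5 fell in control and 1 rose and 4 fell in knockout mice. These were 35.3% and 29.4% of those tested, against 46% and 43.3% of all genes. Those that fell in both genotypes were Cd27, a costimulatory receptor, with log2 fold changes of -2.08 ± 0.25 and -1.71 ± 0.24, the death receptor Fas, with -1.15 ± 0.13 and -0.68 ± 0.13, and Tnfrsf21, with -0.54 ± 0.20 and -0.93 ± 0.19. Cd40, a receptor of the non-canonical pathway, rose by 1.02 ± 0.37 and 0.98 ± 0.35 on the log2 scale from mean normalized counts of 9.16 and 7.53. The call of Cd40 was lost in control mice without replicate 4 or 5 at RT or replicate 1 or 5 at 4°C, and in knockout mice without replicate 1 or 6 at RT or replicate 1, 4, 5 or 6 at 4°C, with log2 fold changes of 0.89 to 0.90 and 0.82 to 0.91. With a pseudocount of 10 its log2 fold changes were 0.62 and 0.53. The call of Tnfrsf21 in control mice was lost without replicate 2, 3 or 4 at RT or replicate 2 or 4 at 4°C, with log2 fold changes of -0.51 to -0.45. The median of the log2 fold changes of these other receptors was -0.41 in control and -0.36 in knockout mice, against -0.02 and -0.02 for all genes.

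Of 28 symbols of adaptors and ubiquitin enzymes, among them Fam105b as a former symbol of Otulin, 26 were tested. In control mice 6 rose and 4 fell, and in knockout mice 8 rose and 3 fell. These were 38.5% and 42.3% of those tested, against 46% and 43.3% of all genes. Those that rose in both were Tank and Tax1bp1, which restrain NF-kB signaling, the deubiquitinases Otulin and Otud7b, and Cflar, an inhibitor of caspase activation, with log2 fold changes of 0.36 to 0.72. Those that fell in both were Tradd and Fadd, adaptors of the death domain receptors, and Rbck1, a subunit of the linear ubiquitin ligase. Tradd fell by 0.83 ± 0.25 on the log2 scale in control (adjusted p = 0.00741, limma) and by 0.58 ± 0.24 in knockout mice (adjusted p = 0.0467), and the latter call was lost in edgeR, under quantile normalization (-0.45) and without knockout replicate 1, 3, 4 or 6 at RT or replicate 2, 3, 4 or 6 at 4°C, with log2 fold changes of -0.62 to -0.45 without 1 mouse. Traf2, an adaptor of both TNF receptors, had log2 fold changes of 0.10 ± 0.16 and -0.02 ± 0.15 and was not called.

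Of 19 kinases, IkB proteins and further Rel genes, 18 were tested, and 7 rose in control and 9 in knockout mice while 0 fell in either. These were 38.9% and 50% of those tested, against 46% and 43.3% of all genes called, or 22.3% and 21.4% called higher. At an unadjusted p under 0.05 the counts were 10 and 10, and DESeq2 and edgeR called 7 each in control mice and 9 and 8 in knockout mice, all of them higher. Chuk and Ikbkg, which encode the alpha subunit and the regulatory subunit of the IkB kinase complex, rose by 0.79 ± 0.17 and 0.65 ± 0.09 in control and by 0.62 ± 0.16 and 0.45 ± 0.09 in knockout mice on the log2 scale. Ikbkb, which encodes the beta subunit, was not called, with log2 fold changes of -0.18 ± 0.09 and -0.11 ± 0.09, but in control mice it was called lower under quantile normalization (-0.28) and 75th percentile scaling (-0.29). Map3k8, which encodes a kinase, rose most of this list, with log2 fold changes of 1.30 ± 0.30 and 1.27 ± 0.29 (adjusted p = 9.04e-04 and 7.97e-04, limma). In control mice its normalized counts were 19.8 to 46.5 (median 29.4) at RT and 115, 92.6, 62.2, 89.6 and 41.7 at 4°C. The kinase Tbk1 and the IkB genes Nfkbib and Nfkbiz rose in both genotypes by 0.43 to 0.88 on the log2 scale. The call of Nfkbiz in control mice was lost with 75th percentile scaling (0.32), in the fit of only the compared groups (0.43) and without replicate 3 or 6 at RT or replicate 4 or 5 at 4°C, with log2 fold changes of 0.34 to 0.39 without 1 mouse. Map3k14, the kinase of the non-canonical pathway (0.50 ± 0.30 and 0.34 ± 0.28), and the subunit gene Rel (-0.25 ± 0.19 and -0.37 ± 0.18) were not called. Rel passed in knockout mice without replicate 1 at RT or replicate 5 at 4°C, with -0.47 in both fits.

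Of 35 target genes of NF-kB other than those above, 16 were tested, and Ccl2 was not among them. In control mice 2 rose and 5 fell, 43.8% of those tested, and in knockout mice 2 rose and 4 fell, 37.5%, against 46% and 43.3% of all genes. The count in control mice was 4 in place of 7 without control replicate 3 or without control replicate 4 at 4°C, or when genes with low counts were left out. Irf1, which encodes an interferon response factor, fell, with normalized counts in control mice of 297 to 512 (median 353) at RT and 129, 121, 148, 193 and 163 at 4°C and log2 fold changes of -1.31 ± 0.15 and -0.99 ± 0.14 in control and knockout mice (adjusted p = 9.49e-08 and 3.47e-06, limma). Plau, which encodes urokinase, fell by 0.92 ± 0.28 and 1.19 ± 0.27 on the log2 scale. Cxcl10, a chemokine gene, was called lower in both genotypes but rests on few reads, no mouse having a normalized count above 22.9 and some mice at 4°C being at 0, and its log2 fold changes with a pseudocount of 10 were -0.58 and -0.85. Its call in control mice was lost under quantile normalization and without control replicate 2, 3 or 4 at 4°C. Bcl2l1, which encodes the survival protein Bcl-xL, rose by 0.62 ± 0.12 and 0.46 ± 0.11 on the log2 scale. Vcam1, an adhesion gene often induced together with Icam1, had log2 fold changes of 0.37 ± 0.20 in control mice, which was not called, and 0.62 ± 0.19 in knockout mice, which was (adjusted p = 0.0104, limma). The difference between the genotypes, 0.25 ± 0.28, was not called.

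**Figure D5:**
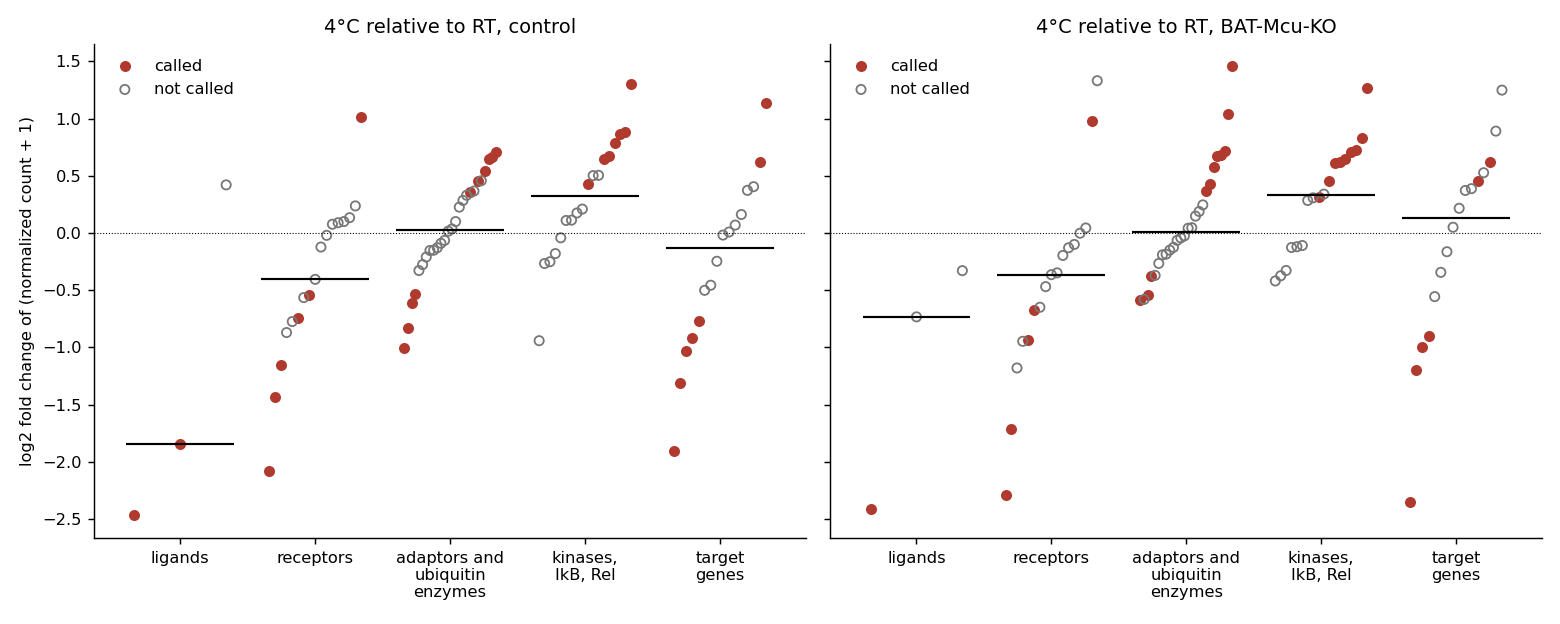
Log2 fold change of normalized count + 1 by cold in control (left) and knockout mice (right) for the tested genes of each list, without the 10 genes described above. Filled points are genes called by limma, open points are genes not called and lines are list medians. The kinase, IkB and Rel list has 7 and 9 called genes of 18, all above 0 (38.9% and 50%, against 46% and 43.3% of all genes).

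By genotype, 0 of the 64 pathway genes and 0 of the 16 target genes were called at either temperature or in the interaction, by limma, DESeq2 or edgeR. At an unadjusted p under 0.05 limma gave 1 pathway gene at RT, 6 at 4°C and 4 in the interaction, and 1, 1 and 2 target genes. Fas was the pathway gene with the smallest p at 4°C, higher in knockout than in control mice by 0.45 ± 0.13 on the log2 scale (adjusted p = 0.394, limma).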

How the data were processed

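RNA was sequenced from the BAT of 23 mice, and the group and replicate number of each were taken from the sample labels. Per the labels and the study's methods, the authors made Smart-seq2 libraries, aligned paired reads to mm10 with STAR (version 2.4.0j) and GENCODE annotation, counted reads in exons with HTSeq without regard to strand, and kept 14651 genes. The authors deposited normalized counts (a scaled signal), the reads of a gene divided by the DESeq2 size factor of its sample. Dividing each value by that of 1 read gave whole numbers for 100.0% of low values (within 0.02), so reads were recovered, 7129271 to 21006347 per sample. Intervals of read number cover counting error only. A table of the authors' own comparisons, holding fold changes and p-values, was not used.

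Genes were tested with limma (version 3.58.1, R version 4.3.3, variance trend) on log2(normalized count + 1), fitting the 4 group means to all samples at once. Adjustment by Benjamini and Hochberg covered all 14651 genes, and genes under 0.05 were called. P-values measure the spread between mice. The 10 genes, the lists and the tests were chosen with earlier results of these data known. Genes of the lists were named if called in both cold comparisons in the same direction with a log2 fold change of at least 1 in size (up to 6 per list and direction) or called by genotype, or if listed beforehand (Tnf, Traf2, Tradd, Chuk, Ikbkb, Ikbkg, Map3k14, Rel, Ccl2 and Vcam1). The smaller changes called in both cold comparisons were added after their values were seen. Genes similar to Tnfrsf1a and Nfkbia were the 5 with the highest Pearson's r, without a symbol turned into a date.

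Alternatives were a pseudocount of 0.5 or 10, a mean normalized count of 50 or more, 8 or more normalized counts in every sample, quantile normalization, scaling to the 75th percentile, limma without trend, only the compared groups, a block for the replicate number, and leaving out each sample in turn. The recovered reads were tested with DESeq2 (version 1.42.0) and with the quasi-likelihood test of edgeR (version 4.0.16). The tests were tried on simulated counts. Positions and exonic lengths, which take all annotated exons of a gene together, come from GENCODE M21 on GRCm38.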

Additional observations from a re-analysis of the deposited data

Results flagged for a closer look

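Values of the 10 genes and of the named list genes were searched, group by group, for a mouse whose distance to the nearest other mouse was unusually large for the range of its group (Dixon's test at the 95% level). Of 152 groups of values, 9 held such a mouse, and chance gives about 1 in 20. The share found is near that of chance, so these mice are listed as a description only.

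Among the 10 genes, each in 4 groups, there were 3. Tnfrsf1b was 1394 in control replicate 1 at 4°C, and the other 4 mice of that group were between 86.5 and 167. Nfkb1 was 125 in BAT-Mcu-KO replicate 2 at 4°C, below the other 5 mice at 165 to 189. Relb was 215 in control replicate 5 at RT, above the other 5 mice at 132 to 149.7.

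Among the list genes, Rbck1 was 732 in control replicate 4 at 4°C, against 813 to 819.5 in the others. Tax1bp1 was 3398 in control replicate 1 at 4°C, the same mouse that was highest in Tnfrsf1b, and 1756 in BAT-Mcu-KO replicate 3 at RT. Control replicate 1 at 4°C had the fewest reads of all samples, 7129271, and the part of read depth in its values was not tested. Tbk1 was 237 in control replicate 4 at RT. Nfkbiz was 135 and Plau was 179 in control replicate 2 at RT, both above the other mice of the group.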

How the results depend on the processing

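Of the counts of called genes recomputed under each alternative, 365 stayed within 1.5 times the value given above and 4 did not, all of them NF-kB target genes by cold in control mice. That count was 7, and 4 with only genes of a mean normalized count of 50 or more, 4 with only genes of 8 or more in every sample, and 4 to 7 when each sample was left out in turn. The low-count settings test fewer genes. The cause of the change without a single mouse was not tested. The 10 genes gave 1220 recomputed log2 fold changes, and those called by cold kept their direction and call in each fit that included them. Tnfaip3 was left out by both low-count settings, with group means of 12.1 to 28.7 and a lowest normalized count of 6.14. Its call in knockout mice was therefore not recomputed there. Calls were gained by Nfkbia, Nfkb1 and Rela in the fits without a mouse given above. Nfkb1 by cold in control mice, not called, ran from -0.02 to 0.23 when each mouse was left out. Of the named list genes, Traf2, never called, changed sign to -0.00792 in control mice with 75th percentile scaling, and to 0.04 and 0.12 in knockout mice without replicate 5 at RT and without replicate 1 at 4°C, where leaving out each mouse in turn gave -0.11 to 0.12. Scaling to the 75th percentile moved the median of all genes by cold in control mice, on the log2 scale, from -0.02 to -0.13. In the interaction over all genes, DESeq2 called 28 genes, and limma and edgeR 0. Replicate numbers are shared between groups, but the deviations of same-numbered mice correlated by more than 0.1 in 2 of 5 pairs between the genotypes at 4°C and in 0 pairs of the other comparisons, so the numbers were not taken as pairs. With the replicate block, 5 and 6 of the 10 genes were called by cold in control and knockout mice, 22 and 23 pathway genes and 6 and 6 target genes, and 0 by genotype or in the interaction. Of the named genes, Tradd in knockout mice (adjusted p = 0.0637, limma) and Tnfrsf21 in control mice (adjusted p = 0.0517) were not called with the block. Tnfaip3, Cd40 and Cxcl10 rest on few reads, and of the 10 genes Tnfrsf1b had the largest SE by cold, 0.53 and 0.50 on the log2 scale.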

Other observations

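Over all samples, the genes whose log2 values were most like those of Tnfrsf1b, a comparison added after its values were seen, were 2410131K14Rik (Pearson's r 0.955 over 23 samples), the splicing factor gene Prpf6 (0.921), Gusb (0.913), which encodes a lysosomal enzyme, Fst (0.913), which encodes the activin antagonist follistatin, and Aifm2 (0.912). Tnfrsf1a had an r of 0.795 with Tnfrsf1b. The samples share the temperature difference, and no test was made.

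The summed normalized counts of 5 fibroblast markers were 2976 to 4308 in control mice at RT, 3248 to 5524 in control mice at 4°C, 2635 to 4233 in knockout mice at RT and 3078 to 5072 in knockout mice at 4°C, and the groups overlapped.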
